A study of Homo sapiens with 4 samples.

Results

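The 10 genes described here encode the kinases, phosphatases and chromatin proteins of the DNA damage checkpoint: ATM, ATR, CHEK1, CHEK2, WEE1, CDC25A, CDC25B, CDC25C, MDC1 and H2AFX (the older symbol of H2AX). They were taken by name from a deposited table of 58735 genes, and each name matched 1 row. All 10 passed the filter on low values (FPKM 1 or higher in 2 or more libraries), as did 13379 genes in all. FPKM counts fragments scaled to gene length and library size. RNA of a lung squamous cell carcinoma line, as labelled, was sequenced as 2 libraries at 0 Gy and 2 at 30 Gy (gray, a unit of radiation dose). The design text speaks of SK-MES-1 cells and of SK-MES-1-RR, a line resistant to radiotherapy. Which library came from which line, how and when the dose was given, and whether replicates were separate cultures is not in the labels. Groups are thus named by dose alone, and p-values measure the spread between these libraries, which may be technical. No label gives a genotype, a transgene or another agent.

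ATM and ATR are large protein kinases at the top of the checkpoint. ATM is activated at DNA double-strand breaks through the MRE11-RAD50-NBN complex, and ATR at single-stranded DNA, as at stalled replication forks. ATM phosphorylates CHEK2 and ATR phosphorylates CHEK1. CHEK1 and CHEK2 in turn phosphorylate the CDC25 phosphatases, which are then held by 14-3-3 proteins or degraded. CDC25 enzymes remove the inhibitory phosphates that WEE1 and PKMYT1 place on cyclin-dependent kinases, so WEE1 and CDC25 oppose each other at entry into mitosis. H2AFX encodes the histone variant H2AX, whose tail is phosphorylated by these kinases around a break, and MDC1 binds that phosphorylated tail. Much of this control acts on protein modification and stability, which RNA levels do not measure.

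Recovered whole reads, the depth behind the FPKM, ran from 15920861 to 17261121 per library. The median absolute log2 difference over tested genes was 0.0984 and 0.111 between replicates and 0.218 to 0.224 between doses, so no library stood apart from its group. Of the squamous markers KRT5 and DSG3 were at 0 in all 4 libraries, and mean TP63 was 4.04 ± 0.128 FPKM without and 3.26 ± 0.105 with irradiation (SD, n = 2 each). Of the 6 epithelial keratins and adhesion genes 5 were tested, with a summed level of 333 to 344 FPKM at 0 Gy and 368 to 402 at 30 Gy. Within that sum KRT7 was higher at 30 Gy (95.8 ± 0.615, then 210.9 ± 14.2) and KRT19 lower (162 ± 4.27, then 88.4 ± 6.18) (limma, adjusted p = 0.00232 and 0.00424), and CDH1 was near 0. The 5 immune and endothelial markers summed to at most 0.277 FPKM in any library. The 5 fibroblast markers summed to 62.8 to 63.2 FPKM at 0 Gy and 72.4 to 78.6 at 30 Gy, nearly all of it COL1A1, while DCN was at 0. These are bulk libraries, in which fewer cells of a kind and less RNA per cell cannot be told apart.

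H2AFX, CHEK1 and CDC25C rose at 30 Gy, by 2.31-fold, 1.84-fold and 1.56-fold in mean FPKM, and none of the 10 genes fell. That is 3 of 10 genes higher, where 10.8% of all tested genes were called higher, and 0 of 10 lower, where 9.06% were, or 19.8% in either direction (limma on log2(FPKM + 1), adjusted p under 0.05 over all tested genes). The median log2 change of the 10 genes was 0.26, against -0.00068 over all tested genes, and 8 of 10 had a change above 0. The 2 doses did not overlap for 9 of the 10 genes, 7 of them higher at 30 Gy. Over all tested genes the doses did not overlap for 65.2%, and lay higher at 30 Gy for 32.9%. The count of 3 fell to 1 without either 30 Gy library (H2AFX in each case), and to 0 without either 0 Gy library, where no gene of the whole table passed. It was also 0 when every gene above 0 was tested, and 5 with limma's voom on the recovered reads, which added WEE1 and MDC1. In fits with a 0 Gy library dropped, a lost call or count of 0 is particular to no gene or list, here and below.

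**Figure D1:**
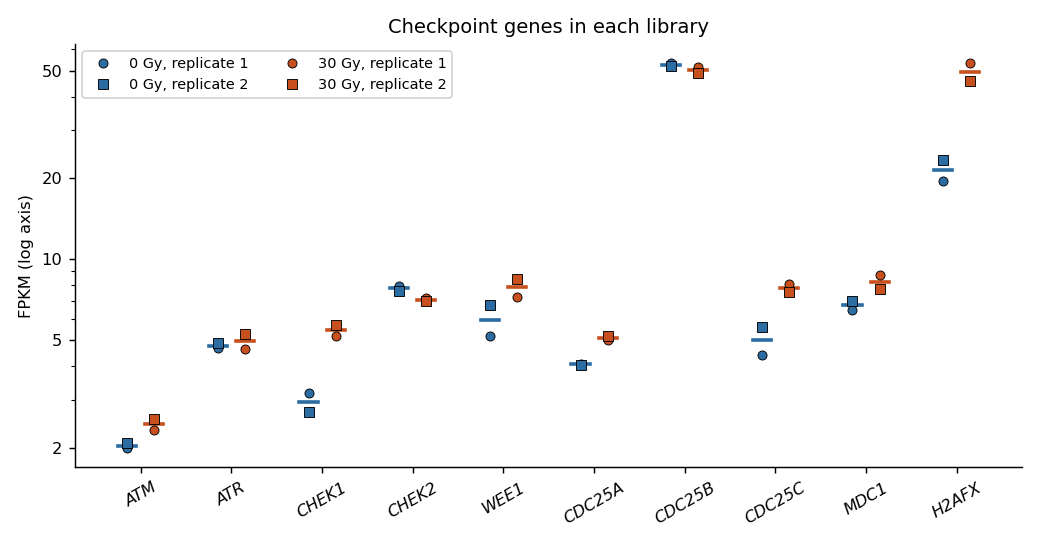
FPKM (log axis) of the 10 checkpoint genes in each library, with circles for replicate 1, squares for replicate 2 and a bar for the mean of each dose. H2AFX stood at 19.4 and 23.4 at 0 Gy and at 53.2 and 45.6 at 30 Gy, while CDC25B stayed between 49.0 and 53.1 in all 4 libraries.

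Neither apical kinase passed the test, and both were among the lower of the 10 genes in FPKM. ATM (ENSG00000149311, 11:108222484-108369102, hg38, plus strand) stood at 1.99 and 2.07 FPKM at 0 Gy and at 2.32 and 2.56 at 30 Gy. Both 30 Gy libraries lay above both 0 Gy libraries, but the log2 change of 0.18 ± 0.10 (SE) did not pass (limma, adjusted p = 0.268). ATR (ENSG00000175054, 3:142449235-142578826, minus strand) stood at 4.66 and 4.87 at 0 Gy and at 4.64 and 5.27 at 30 Gy. It was the gene of the 10 whose doses overlapped, with a log2 change of 0.04 and a 95% interval of -0.18 to 0.27 (limma, not adjusted, as for all intervals here; adjusted p = 0.757). Its change took the opposite sign, -0.033, when 30 Gy replicate 2 was dropped. Within a library ATR was 2.34 and 2.35 times as high as ATM at 0 Gy and 2.00 and 2.06 times at 30 Gy, so the ratio was lower in both 30 Gy libraries. With 2 libraries a dose, no permutation test of such a ratio can give a two-sided p under 0.3333, and the ratios between genes are given as descriptions. ATM shares 143 exon bases with NPAT, a divergently transcribed coactivator of histone genes that had 214 to 324 reads per library against 830 to 977 for ATM. Whether the authors' counting used strand is not given in the sources used here.

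Of the checkpoint kinases that ATR and ATM activate, CHEK1 rose and CHEK2 was not called. CHEK1 (ENSG00000149554, 11:125625136-125676255, plus strand), the effector kinase of the ATR arm, stood at 3.19 and 2.72 FPKM at 0 Gy and at 5.20 and 5.67 at 30 Gy. The recovered reads were 364 and 303 at 0 Gy and 544 and 592 at 30 Gy. The doses were well apart, with a log2 change of 0.70 ± 0.10 (SE, limma, adjusted p = 0.0140), larger than in all but 3.81% of tested genes. CHEK1 missed the threshold when any library was left out, as did every gene without either 0 Gy library. Its log2 change was 0.79 and 0.62 with 0 Gy replicate 1 or 2 dropped. With 30 Gy replicate 1 or 2 dropped it was 0.76 and 0.65. CHEK2 (ENSG00000183765, 22:28687743-28742422, minus strand), the effector kinase of the ATM arm, stood at 7.93 and 7.63 FPKM at 0 Gy and at 7.15 and 6.995 at 30 Gy. Both 30 Gy values were the lower, with a log2 change of -0.12 (95% interval -0.30 to 0.06) that did not pass (limma, adjusted p = 0.264). The ratio of CHEK1 to CHEK2 was 0.402 and 0.356 at 0 Gy and 0.727 and 0.811 at 30 Gy, a 2.03-fold higher mean, a difference between the kinases that was not tested. CHEK2 shares 301 exon bases with HSCB on the opposite strand (232 to 249 reads against 500 to 620 for CHEK2), and its 4 listed pseudogenes had 0 reads in each library. CHEK1 shares 80 exon bases with STT3A on the same strand (1785 to 2299 reads). STT3A rose too (log2 change 0.41, limma, adjusted p = 0.0174). Any part of its reads in the CHEK1 count was not tested.

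Promoter sequence was examined for the genes that rose and for the CDC25 family, since E2F factors and the DREAM complex are known to control many checkpoint and mitotic genes through short promoter words. RefSeq windows (GRCh38.p14, from 250 bases before to 50 after a start site) were found for 9 of the 10 genes, 18 windows in all, with no entry used for WEE1. Each was searched on both strands for TTTGAA and TTCGAA (forms of the cell cycle homology region), CCAAT (the NF-Y word), and TTTCGCGC, TTTGGCGC and TTTCCCGC (E2F words). TTCGAA reads the same on both strands, and matches of different words may overlap. Of 35116 windows of this length, 15.2% held TTTGAA, 1.45% TTCGAA, 34.6% CCAAT, 0.515% TTTCGCGC, 0.652% TTTGGCGC and 1.63% TTTCCCGC. A match describes letters and shows no binding. The 250 bases before a start of each of the genes that rose are printed first, with matches in capitals, because they let the words in the called genes be compared with those in the uncalled CDC25 genes further on.
CHEK1, chr11:125626106-125626355, plus strand: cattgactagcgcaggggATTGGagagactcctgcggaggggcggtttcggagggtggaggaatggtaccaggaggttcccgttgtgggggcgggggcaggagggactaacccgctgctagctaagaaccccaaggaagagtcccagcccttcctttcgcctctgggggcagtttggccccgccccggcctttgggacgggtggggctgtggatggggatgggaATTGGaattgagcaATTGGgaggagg
H2AFX, chr11:119095466-119095715, minus strand: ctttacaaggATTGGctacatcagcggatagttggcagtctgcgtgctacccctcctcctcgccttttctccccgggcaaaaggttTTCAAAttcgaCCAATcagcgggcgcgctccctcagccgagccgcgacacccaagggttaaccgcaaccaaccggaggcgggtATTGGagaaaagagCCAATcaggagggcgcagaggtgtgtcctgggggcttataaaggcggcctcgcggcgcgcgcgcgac
CDC25C, chr5:138331805-138332054, minus strand: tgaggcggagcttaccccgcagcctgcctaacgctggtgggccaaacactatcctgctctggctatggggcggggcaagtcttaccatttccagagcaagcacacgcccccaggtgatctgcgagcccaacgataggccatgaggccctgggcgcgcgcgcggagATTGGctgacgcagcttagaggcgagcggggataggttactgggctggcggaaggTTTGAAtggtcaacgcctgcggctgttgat

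The CHEK1 stretch, from 1 of 3 windows of that gene, held CCAAT 3 times, all as ATTGG on the printed strand, and no E2F word or cell cycle homology word. Each of the other CHEK1 windows, which overlap this stretch, held CCAAT 1 time and no other searched word. That match is the same site as the first of the printed stretch. Positions count from the start site, with negative values before it. H2AFX held CCAAT 4 times, at -240, -153, -81 and -67, and TTTGAA on the opposite strand at -164. CDC25C held a single CCAAT in this window, at -85, and TTTGAA at -30. This is 1 of 4 windows of CDC25C, of which 2 held none of the searched words. The remaining window overlaps the printed one and held CCAAT 3 times and the same TTTGAA site. CCAAT was found in at least 1 window of each of the 9 genes with windows except ATR, in genes that rose and in genes that were not called. Over all 27305 genes with windows, 39.7% held it in at least 1. That share makes no allowance for the 3 or 4 windows of some of the 9 genes.

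Of the CDC25 phosphatases, CDC25C rose, and CDC25A and CDC25B were not called. CDC25C (ENSG00000158402, 5:138285265-138338355, minus strand), which acts at entry into mitosis, stood at 4.42 and 5.60 FPKM at 0 Gy and at 8.05 and 7.57 at 30 Gy. Its 2 doses did not overlap, although the 0 Gy replicates differed 1.27-fold. The log2 change was 0.56 ± 0.12 (SE, limma, adjusted p = 0.0328). CDC25C missed the threshold when any library was left out, as did every gene without either 0 Gy library. Its log2 change was 0.42 and 0.70 with 0 Gy replicate 1 or 2 dropped. With 30 Gy replicate 1 or 2 dropped it was 0.52 and 0.60. CDC25A (ENSG00000164045, 3:48157146-48188402, minus strand), which also acts at the start of S phase, stood at 4.09 and 4.06 at 0 Gy and at 5.01 and 5.18 at 30 Gy. Its replicates were the closest of the 10 genes at 0 Gy, and both 30 Gy libraries were higher, but the log2 change of 0.26 ± 0.08 (SE) did not pass (limma, adjusted p = 0.0690). CDC25B (ENSG00000101224, 20:3786772-3806121, plus strand), which is thought to start the activation of CDK1 at the centrosome, was the most abundant of the 10 at 0 Gy. It stood at 53.1 and 51.9 FPKM at 0 Gy and at 51.6 and 49.0 at 30 Gy, a log2 change of -0.06 with a 95% interval of -0.22 to 0.09 (limma, adjusted p = 0.508).

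Because CDC25B outweighed its relatives, the summed CDC25 level was 61.7 and 61.5 FPKM at 0 Gy and 64.6 and 61.8 at 30 Gy. CDC25C made up 7.18% and 9.11% of that sum at 0 Gy and 12.5% and 12.3% at 30 Gy. CDC25A made up 6.63% and 6.59%, then 7.74% and 8.38%. CDC25B made up 86.2% and 84.3% at 0 Gy and 79.8% and 79.4% at 30 Gy. Both 30 Gy libraries thus held larger shares of CDC25A and CDC25C and a smaller share of CDC25B than either 0 Gy library; these shares were not tested. CDC25C shares 293 exon bases with FAM53C on the opposite strand (603 to 703 reads against 257 to 429 for CDC25C).

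Among the CDC25 promoters the words differed by gene. The stretches of the CDC25 genes that were not called are shown to set beside that of CDC25C above.
CDC25A, chr3:48188418-48188667, minus strand: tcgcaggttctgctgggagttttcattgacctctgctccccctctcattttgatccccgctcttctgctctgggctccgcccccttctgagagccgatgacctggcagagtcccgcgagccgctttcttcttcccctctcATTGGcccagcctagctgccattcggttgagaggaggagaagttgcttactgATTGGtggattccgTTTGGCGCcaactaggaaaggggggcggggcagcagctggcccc
CDC25B, chr20:3796060-3796309, plus strand: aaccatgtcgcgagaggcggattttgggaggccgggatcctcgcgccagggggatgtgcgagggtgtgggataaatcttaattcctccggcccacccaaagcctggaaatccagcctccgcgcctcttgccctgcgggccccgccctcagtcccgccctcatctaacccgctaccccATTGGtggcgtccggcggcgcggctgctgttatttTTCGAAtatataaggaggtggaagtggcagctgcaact
CDC25A held the E2F word TTTGGCGC at -44, the only E2F word found in any window of the 9 genes with windows, and CCAAT in 2 places. This CDC25B window, 1 of 4 for that gene, held TTCGAA at -38 and CCAAT once, whereas CDC25C held the TTTGAA form. Some other windows of CDC25B held none of the searched words. Words of the cell cycle homology region were thus present both in the CDC25 gene that rose and in CDC25B, which was not called. TTTGAA was also found in ATM at -20 and in MDC1 at -130, and neither gene was called.

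WEE1, which opposes the CDC25 enzymes by phosphorylating CDK1, was higher in both 30 Gy libraries without passing. WEE1 (ENSG00000166483, 11:9573681-9593457, plus strand) stood at 5.18 and 6.74 FPKM at 0 Gy and at 7.23 and 8.46 at 30 Gy. The second replicate was the higher at each dose, and the 0 Gy replicates differed 1.302-fold, the widest of the 10 genes. The log2 change was 0.35 ± 0.14 (SE) with a 95% interval of -0.0054 to 0.71 (limma, adjusted p = 0.137), and voom on the recovered reads gave 0.39 with an adjusted p of 0.0179. PKMYT1, the membrane-bound kinase that shares this task, stood at 4.66 and 3.98 FPKM at 0 Gy and at 5.51 and 4.53 at 30 Gy and did not pass either. The ratio of summed CDC25 to WEE1 plus PKMYT1 was 6.27 and 5.74 at 0 Gy and 5.07 and 4.75 at 30 Gy. The ratio of CDC25C alone to WEE1 went the other way, from 0.854 and 0.831 to 1.11 and 0.894. The first ratio was lower and the second higher in both 30 Gy libraries, and neither was tested. The level of such a ratio rests on gene length: with the longest protein-coding transcript, a choice made after seeing the data, CDC25C to WEE1 was 0.498 and 0.485 at 0 Gy and 0.650 and 0.522 at 30 Gy. The ratio with PKMYT1 was not recomputed in this way.

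**Figure D2:**
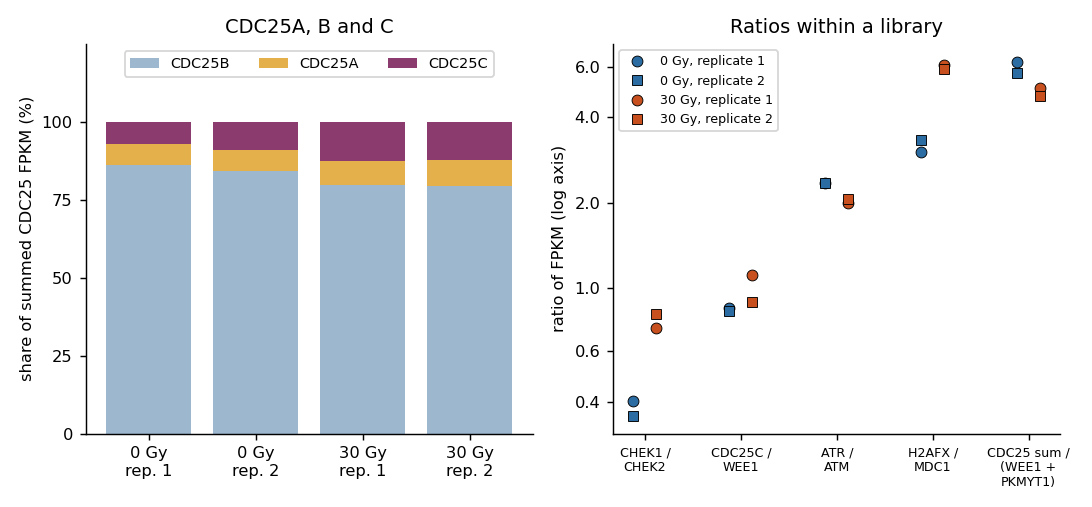
Left, share of the summed CDC25 FPKM taken by each gene in each library (percent, bars); right, ratios of FPKM between checkpoint genes within a library (log axis), with circles for replicate 1 and squares for replicate 2. CDC25C held 7.18% and 9.11% of the CDC25 sum at 0 Gy and 12.5% and 12.3% at 30 Gy, and the ratio of CHEK1 to CHEK2 was 0.402 and 0.356, then 0.727 and 0.811.

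Of the chromatin proteins, H2AFX had the largest change of the 10 genes. H2AFX (ENSG00000188486, 11:119093854-119095467, minus strand) stood at 19.4 and 23.4 FPKM at 0 Gy (546 and 641 reads) and at 53.2 and 45.6 at 30 Gy (1371 and 1172 reads). Both 30 Gy libraries lay far above both 0 Gy libraries. The log2 change was 1.17 ± 0.12 (SE, limma, adjusted p = 0.00672), and 150 of the 13379 tested genes had a larger rise. Its call was lost with 0 Gy replicate 1 or 2 dropped (adjusted p = 0.0847 and 0.0800), and held with 30 Gy replicate 1 or 2 dropped (0.0404 and 0.0301). MDC1 (ENSG00000137337, 6:30699807-30717889, minus strand), the reader of phosphorylated H2AX, stood at 6.46 and 7.01 FPKM at 0 Gy and at 8.75 and 7.72 at 30 Gy. Both 30 Gy values were the higher, with a log2 change of 0.25 ± 0.09 (SE) that did not pass (limma, adjusted p = 0.108; 0.0410 with voom). The ratio of H2AFX to MDC1 was 3.01 and 3.33 at 0 Gy and 6.08 and 5.91 at 30 Gy. MDC1-AS1, an antisense RNA sharing 701 exon bases with MDC1, had 0 reads in each library.

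H2AFX was compared with the other H2A variants, of which 3 of 5 rose and 1 fell (median log2 change 0.36), beside 10.8% and 9.06% of all tested genes. The count of 3 was 0 with any library dropped and when every gene above 0 was tested. H2AFV, a close relative of H2A.Z, rose from 51.3 ± 2.20 to 66.1 ± 0.883 FPKM (SD, n = 2 each), and H2AFJ from 5.83 ± 1.23 to 9.47 ± 0.486. The macroH2A genes moved apart: H2AFY rose from 8.14 ± 0.370 to 11.4 ± 0.203, and H2AFY2 fell from 14.2 ± 0.486 to 9.59 ± 0.761. H2AFZ, at 128 ± 5.79 and 146 ± 4.70, did not pass. Of the summed H2AFX, H2AFZ and H2AFV level, H2AFX made up 9.49% and 11.8% at 0 Gy and 20.3% and 17.4% at 30 Gy. Among 6 tested genes for enzymes and readers of H2AX the single call was EYA1, a phosphatase of its tail tyrosine. EYA1 stood at 0.201 and 0.325 FPKM at 0 Gy and at 1.44 and 1.38 at 30 Gy, so it passed the filter only through the 30 Gy libraries, and its call, lost with the replicate block and with any library dropped, supports nothing here.

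**Figure D3:**
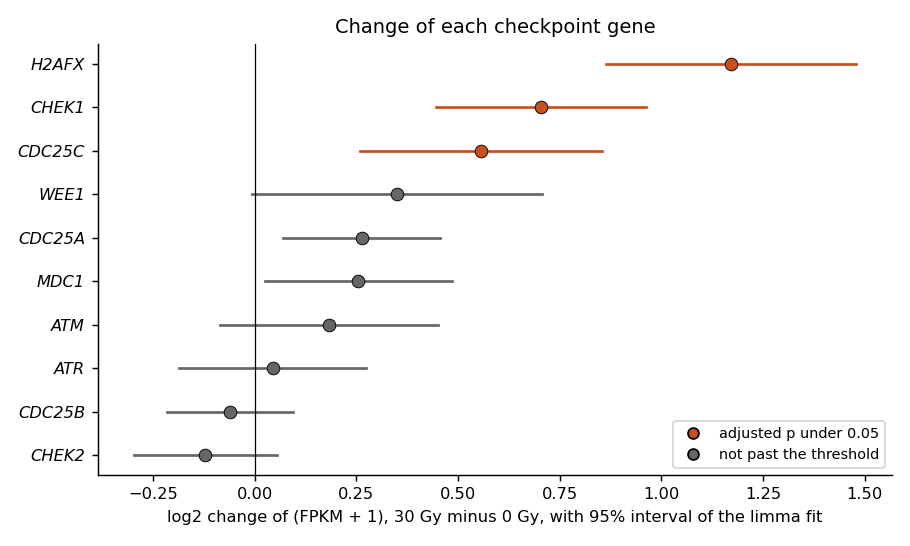
Log2 change of (FPKM + 1), 30 Gy minus 0 Gy, with its unadjusted 95% interval from limma, for the 10 checkpoint genes in order of change. H2AFX (1.17), CHEK1 (0.70) and CDC25C (0.56) passed the threshold over all genes, and the intervals of CDC25A and MDC1 lay above 0 although their adjusted p did not pass.

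In order of mean level at 0 Gy the genes were CDC25B, H2AFX, CHEK2, MDC1, WEE1, CDC25C, ATR, CDC25A, CHEK1 and ATM, from 52.5 to 2.03 FPKM. In that order 3 neighbouring pairs overlapped between libraries, namely MDC1 with WEE1, WEE1 with CDC25C, and CDC25C with ATR, and the other neighbours did not. At 30 Gy H2AFX (49.4 ± 5.35) and CDC25B (50.3 ± 1.80) overlapped at the top, MDC1, WEE1 and CDC25C overlapped one another, as did ATR with CDC25A and with CHEK1. CHEK1 stood seventh in place of ninth by its mean, a place above ATR that was within the spread of the libraries. These levels rest on the deposited gene length, which is the union of all annotated exons. With the length of the longest protein-coding transcript instead, a choice made after seeing the data, WEE1 stood at 16.0 in place of 5.96 at 0 Gy and CHEK2 at 17.7 in place of 7.78, while CDC25B, H2AFX and ATM kept the first, second and last place at both doses. The ratio of mean FPKM between doses does not depend on the length used, whereas the log2 change of (FPKM + 1) does.

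The other genes of the pathway were described through 10 lists. Of 104 tested genes, leaving out the 10 above, 27 rose and 8 fell, which is 25.96% higher and 7.69% lower beside 10.8% and 9.06% of all tested genes. The 27 include EYA1, whose call was set aside above because it passed the filter only through the 30 Gy libraries. The list with the most rises was that of the partners of mitotic entry, where 10 of 14 rose and 0 fell (median log2 change 0.47). CDK1, the kinase that WEE1 inhibits and CDC25 activates, rose from 18.8 ± 1.11 to 28.1 ± 1.37 FPKM, and its partner CCNB1 from 58.5 ± 2.79 to 83.6 ± 4.49 (SD, n = 2 each). CCNB2 rose from 17.9 ± 0.269 to 31.6 ± 0.379 and CCNA2 from 35.5 ± 0.628 to 49.96 ± 0.330. PLK1, which activates CDC25C and marks WEE1 for degradation, rose from 20.8 ± 0.320 to 32.3 ± 1.09, and MASTL, which restrains the phosphatase that opposes CDK1, from 6.45 ± 0.504 to 10.6 ± 0.124. That count was 5 and 2 with 30 Gy replicate 1 or 2 dropped, 0 with either 0 Gy replicate dropped, and 3 when every gene above 0 was tested.

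Factors upstream of the kinases and around them are read beside the 10.8% of all tested genes called higher and the 9.06% called lower. Of 13 damage sensors NBN, the ATM-recruiting subunit of the break sensor complex, rose from 7.72 ± 0.125 to 11.5 ± 0.475 FPKM, and 0 fell. Of 12 checkpoint mediators CLSPN, the claspin adaptor that ATR needs to activate CHEK1, rose from 4.49 ± 0.0316 to 7.35 ± 0.818, and 0 fell. Of 5 factors that help ATM and ATR to fold and mature, TTI1 rose from 10.2 ± 1.03 to 14.8 ± 1.46 and RUVBL1 fell from 18.0 ± 1.53 to 13.6 ± 0.590. Of 14 genes for binding and turnover of CDC25 and WEE1, 3 rose and 0 fell. These were the 14-3-3 genes YWHAH (36.7 ± 0.713 to 61.7 ± 4.06) and YWHAQ (202 ± 7.13 to 268 ± 1.51) and SKP1, of the ubiquitin ligase that degrades CDC25A (14.4 ± 0.504 to 18.3 ± 0.889). Of 10 phosphatase genes PPP4C rose from 47.7 ± 0.0625 to 59.8 ± 2.58, PPP5C from 7.52 ± 0.0611 to 9.88 ± 0.548, and PPP1CC fell from 31.3 ± 0.504 to 25.2 ± 1.33. Without either 0 Gy library each of these counts was 0. When every gene above 0 was tested, the counts for the mediators, the maturation factors and the phosphatases were 0. That for binding and turnover of CDC25 and WEE1 fell to 1, and that for the damage sensors stayed at 1. With eBayes without trend the counts for the maturation factors and the phosphatases were 0, and that for binding and turnover was 2. Dropping 1 or the other 30 Gy library lost calls in each list. The maturation factors and the phosphatases lost all calls in either case.

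Transcription factors known to drive checkpoint and mitotic genes were also examined. Of 19 tested E2F, RB and DREAM factors 4 rose and 2 fell (median log2 change 0.20), beside 10.8% and 9.06% of all tested genes. Those counts were 3 and 0 with either 30 Gy replicate dropped and 0 and 0 with either 0 Gy replicate dropped. MYBL2, of the complex that turns on mitotic genes, rose from 20.4 ± 0.443 to 38.5 ± 3.50 FPKM and FOXM1, its partner in that task, from 19.1 ± 1.04 to 32.6 ± 1.15. E2F7, an E2F repressor, rose from 7.98 ± 0.500 to 15.6 ± 0.200 and TFDP1, the dimer partner of E2F proteins, from 38.9 ± 0.867 to 49.2 ± 0.644. The 2 that fell, named here to complete the count, were E2F8 (3.71 ± 0.127 to 2.60 ± 0.0472) and RBBP4 (20.6 ± 0.725 to 16.9 ± 0.562). E2F1, at 19.2 ± 3.20 and 26.3 ± 1.46, did not pass (limma, adjusted p = 0.0638). Among 9 proliferation markers 5 rose and 0 fell, beside 10.8% and 9.06% of all tested genes. MKI67 rose from 17.7 ± 0.779 to 27.9 ± 1.24. The summed level of the 9 markers was 304 to 312 FPKM at 0 Gy and 376 to 381 at 30 Gy. The 5 were MKI67, TOP2A, PCNA, MCM5 and MCM7, while MCM2 and MCM6 had log2 changes of -0.13 and -0.088. The count was 1 with either 30 Gy replicate dropped, 0 with either 0 Gy replicate dropped and 1 when every gene above 0 was tested. The part of proliferation in the changes of CHEK1, CDC25C and H2AFX was not tested.

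**Figure D4:**
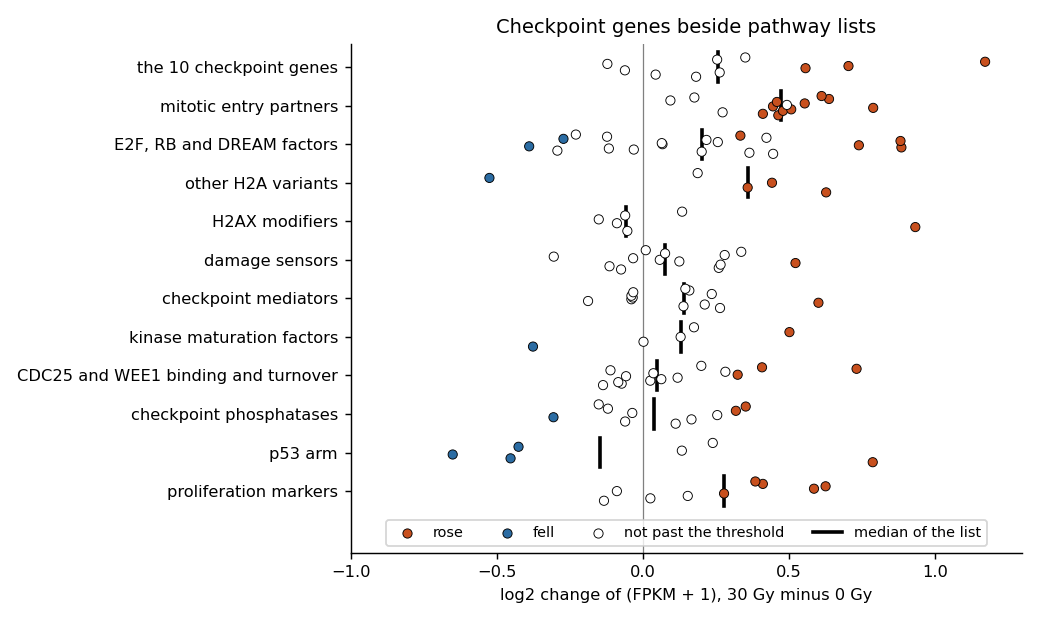
Log2 change of (FPKM + 1), 30 Gy minus 0 Gy, of each tested gene (points) in the 10 checkpoint genes, the pathway lists and the proliferation markers, filled where limma's adjusted p was under 0.05, with a bar at each list's median. The mitotic entry partners had 10 of 14 genes higher and a median of 0.47, and the 10 checkpoint genes 3 higher and a median of 0.26. The filled point of the H2AX modifiers is EYA1, which passed the filter only through the 30 Gy libraries.

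The position of the genes was set beside their changes, because 4 of the 10 lie on chromosome 11. For each gene the 10 tested protein-coding genes on either side were taken. Around ATM, CHEK1 and H2AFX, all on the long arm, 18, 18 and 19 of 20 neighbours had a log2 change above 0, with medians of 0.30, 0.31 and 0.25. Together these were 60 different genes, of which 19 rose and 1 (MSANTD4, named after its value was seen) fell, beside 11.8% and 9.48% of all tested protein-coding genes. ATM, at 0.18, lay below its neighbours' median, and 13 of the 20 had a larger change. CHEK1, at 0.70, exceeded 19 of its 20 neighbours, SLC37A2 being the exception at 1.07. H2AFX, at 1.17, exceeded all 20, of which MCAM was the nearest at 1.02. Around WEE1, on the short arm, the median was 0.18 with 3 of 20 higher and 1 lower, and with 20 genes on each side it was 0.06 with 3 of 40 higher and 8 lower. CDC25C lay among neighbours with a median of 0.22, of which 7 rose and 1 fell, while the medians around the other 5 genes ran from -0.09 to 0.11. Of 20 neighbours each, 5 rose and 0 fell around MDC1, and 4 and 0 around CDC25B. The counts were 2 and 0 around CHEK2, 2 and 1 around CDC25A, and 2 and 3 around ATR. The part of position in the changes of ATM, CHEK1 and H2AFX was not tested.

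**Figure D5:**
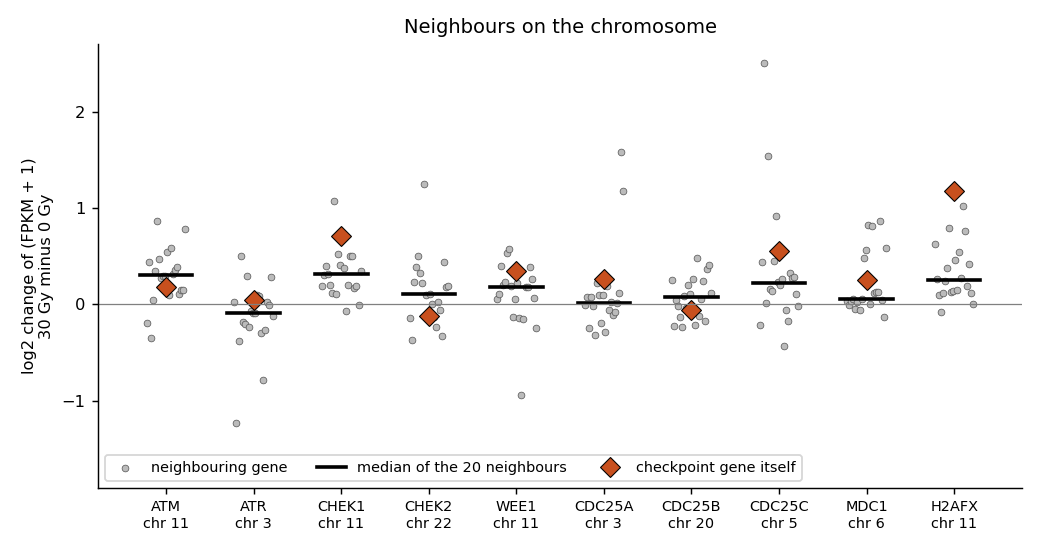
Log2 change of (FPKM + 1), 30 Gy minus 0 Gy, of each checkpoint gene (diamond) and its neighbours (points), with the neighbours' median (bar). Neighbours were the 10 tested protein-coding genes on either side. The medians around ATM, CHEK1 and H2AFX were 0.30, 0.31 and 0.25, and H2AFX (1.17) lay above all 20 of its neighbours.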

How the data were processed

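The authors deposited FPKM values for 58735 genes in 4 libraries, with names, positions and lengths. Their build, per the submitters' processing notes, was hg38; which aligner and counter made them is not given in the sources used here. The gene names all matched GENCODE v29. FPKM times gene length fell on whole steps in each library for 100% of values above 0 (tolerance 0.001), and so gave reads per gene. Genes with FPKM 1 or higher in 2 or more libraries were tested two-sided by limma 3.58.1 (R 4.3.3; lmFit, eBayes with a trend) on log2(FPKM + 1), with Benjamini-Hochberg adjustment over all 13379. This scale understates changes of low genes. With 4 libraries, 2 residual degrees of freedom remained. The fit was tested on simulated data. The alternatives were a pseudocount of 0.1, other filters (none, or FPKM of 5), 2 scalings, eBayes without trend, voom on the recovered reads, a replicate block, and dropping each library in turn. From each list up to 4 genes past the threshold are named, with E2F1, FOXM1, MYBL2, CDK1, CCNB1, PKMYT1 and CDKN1A in any case. The members and lists were chosen with earlier results of these data known. Protein sequences were not used here.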

Additional observations from a re-analysis of the deposited data

How the results depend on the processing

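Over 12 alternatives, or 11 for ATM and ATR, which a filter at FPKM 5 removes, 9 of the 10 genes kept the direction of their change; ATR ranged from -0.033 (with 30 Gy replicate 2 dropped) to 0.12 as each library was dropped. H2AFX kept its call under 9 of 12 alternatives (log2 change 1.05 to 1.299), CHEK1 under 7 (0.62 to 0.86) and CDC25C under 6 (0.42 to 0.70). The 7 for CHEK1 include the filter at FPKM 5, which CHEK1 passed only through the 30 Gy libraries, so that call adds no support. CDC25A passed that filter in the same way and was not called. With every gene above 0 tested, 604 genes were called, 0 of the 10 checkpoint genes (adjusted p = 0.0539 for H2AFX, 0.0747 for CHEK1 and 0.132 for CDC25C), and 9 pathway genes higher and 1 lower. voom called 4227 genes and 5 of the 10. Leaving out each library gave 0 to 898 genes called, 0 to 1 of the 10 higher, 0 to 11 pathway genes higher and 0 to 2 lower; with a lone library in a group, that library is assumed to vary like the others. eBayes without trend called 5 pathway genes lower. The cause of these differences was not tested, beyond the fewer libraries or the more genes tested. Replicate numbers are shared between doses, but same-numbered libraries did not deviate together (r = -0.026 across genes), so the numbers are not treated as pairs. With the replicate block 1926 genes were called, 2 of the 10 higher (CDC25C at an adjusted p of 0.0568) and 24 pathway genes higher and 3 lower. Ratios from reads per kilobase equal those from FPKM by construction. Of 7 ratios and shares recomputed with the longest protein-coding transcript, CDC25C to WEE1 moved by over 1.5 times (mean at 30 Gy 0.586 in place of 1.004). The ratio of summed CDC25 to WEE1 plus PKMYT1 was not among the 7. With 20 neighbours on each side the medians around CHEK2 and WEE1 were -0.02 and 0.06. The 2 libraries per dose limit the precision of every change given.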

Other observations

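The p53 arm, which acts beside the kinases to stop the cell cycle, moved both ways at 30 Gy. Of its 6 tested genes 1 rose and 3 fell (limma, adjusted p under 0.05; median log2 change -0.15), beside 10.8% and 9.06% of all tested genes. These counts were 1 and 1 with either 30 Gy replicate dropped, and 0 and 0 with either 0 Gy replicate dropped. CDKN1A, the p21 inhibitor of cyclin-dependent kinases, rose from 22.3 ± 1.65 to 39.1 ± 1.74 FPKM (SD, n = 2 each). HIPK2, a kinase that phosphorylates p53 after damage, fell from 22.5 ± 0.743 to 13.98 ± 0.331, GADD45A, which restrains CDK1, from 57.9 ± 1.96 to 42.0 ± 1.46, and MDM4, an inhibitor of p53, from 4.48 ± 0.0747 to 3.09 ± 0.254.

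The clustered H2A genes, looked up after the H2AFX values were seen, had low FPKM beside H2AFX. Whether the libraries captured their RNA as fully as that of H2AFX cannot be read from these values. Of 17 protein-coding genes 5 were tested, with 1 higher (HIST2H2AC, log2 change 0.42, limma, adjusted p = 0.0466) and 0 lower. Over all tested genes 10.8% were called higher and 9.06% lower. The summed level of the 17 was 13.5 and 12.5 FPKM at 0 Gy and 15.3 and 20.04 at 30 Gy. Near-identical copies within these clusters make the split of reads between them uncertain.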
